A study of Mus musculus with 2 samples.

Results

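The lysosomal genes described here are 49 protein-coding genes that encode acid hydrolases, lysosomal membrane proteins, soluble non-enzymes of the lysosomal lumen and subunits of the vacuolar proton pump (V-ATPase). They were taken by symbol from a written list, and all 49 were found among the 21938 protein-coding genes that GENCODE M21 places on chromosomes 1 to 19, X and Y of mouse build mm10. The list holds 22 hydrolases, 7 membrane proteins, 3 soluble non-enzymes and 17 V-ATPase genes. The study mapped dimethylated lysine 79 of histone H3 (H3K79me2) by chromatin immunoprecipitation and sequencing (ChIP-seq) in primary macrophages grown from bone marrow of C57BL/6J mice. The cells had received no stimulus, and the labels name no genotype change and no treatment. There were 2 biological replicates in 1 group, each begun with 10 ng of DNA. Both carry the same donor identifier and the same control experiment, their sex and age were not recorded, and the labels do not say whether they came from separate animals or cultures.

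Lysosomes break down what a cell takes up or recycles. Their hydrolases work in an acid lumen, which the V-ATPase fills with protons: its V1 sector splits ATP on the cytosolic side and its V0 sector carries protons through the membrane. Heavily glycosylated membrane proteins line the limiting membrane, and channels and transporters in it release ions, cholesterol and other products. Macrophages are professional phagocytes and carry many lysosomes. Many lysosomal genes hold an E-box of the CLEAR type near their start, the element that Tfeb, Tfe3 and Mitf are known to bind. H3K79me2 is laid down by Dot1l in the transcribed part of active genes, mostly in the first kilobases after the start.

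The authors deposited 4 lists of H3K79me2 peaks: a list for each replicate, a list from the pooled reads and a replicated list made from both replicates, which is the main list here. The first 3 kb of a gene run from its outermost annotated 5′ end, and a gene with 200 bp or more of them under a list is called marked. Coverage of a gene is the number of its bases under the list. An unmarked gene had no peak called there, and may still carry some of the modification. The depth of the libraries is unknown, so no counting interval could be given. With 1 group, 2 replicates and peak lists without read counts, no comparison between groups exists and no p-value was computed. Where the values of both replicates are given, they stand in place of an error. Coverage given without naming a list is that of the replicated list, and the replicates can lie far apart from it.

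The label of the cells was checked against marker genes. Of 6 macrophage genes, 5 were marked (Spi1, Adgre1, Itgam, Mertk and Cd14), and the sixth, Csf1r, had 2779 bp covered in the 3 kb after another of its annotated starts. None of 12 genes of neutrophils, T cells, B cells, fibroblasts and dendritic cells had a covered base in any of the 4 lists.

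Promoter sequences from RefSeq (build GRCm38.p6, 250 bases before to 50 after each start) were found for 40 of the 49 genes. The 9 others are Ctsb, Ctsh, Asah1, Npc1, Atp6v0d2, Atp6v1b2, Atp6v1c1, Atp6v1g1 and Atp6v1h. The palindrome TCACGTGA, the centre of the CLEAR element, was in the windows of 8 of the 40 genes (20.0%). It was in 0.974% of all 32851 windows, in the windows of 1.45% of 16522 protein-coding genes and in those of 2.91% of 5293 marked protein-coding genes. These 8 genes are shown because they let the letters be set beside the peaks: 30 bases around each motif, 5′ to 3′ on the strand of the gene, with the motif in capitals and the genes in order of covered bases. The first 4 follow the rule for printed promoters, and the other 4 were added after their values were seen.
Atp6v0d1 (chr8:105566050-105566079, minus strand): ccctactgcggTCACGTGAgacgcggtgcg
Atp6v1a (chr16:44139373-44139402, minus strand): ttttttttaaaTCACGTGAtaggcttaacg
Atp6v0e (chr17:26676387-26676416, plus strand): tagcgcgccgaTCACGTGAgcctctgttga
Gla, first site (chrX:134601215-134601244, minus strand): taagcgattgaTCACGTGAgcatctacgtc
Gla, second site (chrX:134601182-134601211, minus strand): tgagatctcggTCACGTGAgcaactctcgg
Ctsd (chr7:142387908-142387937, minus strand): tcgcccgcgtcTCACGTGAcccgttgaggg
Cln3 (chr7:126583340-126583369, minus strand): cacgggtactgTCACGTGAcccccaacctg
Mcoln1 (chr8:3500462-3500491, plus strand): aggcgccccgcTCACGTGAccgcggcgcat
Ctsa, first site (chr2:164833749-164833778, plus strand): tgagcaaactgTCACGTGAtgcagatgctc
Ctsa, second site (chr2:164833766-164833795, plus strand): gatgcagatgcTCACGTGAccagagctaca

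The 8 carriers spread over 3 classes: 3 V-ATPase genes, 3 hydrolases and 2 membrane proteins, and none of the 3 soluble non-enzymes. In Atp6v0d1 the motif lay across the RefSeq start, with its first base 4 bases before it. In Atp6v0e it began at the third transcribed base, and in Mcoln1 46 bases before the start. Both Gla motifs, 228 and 195 bases before the start, fell inside the neighbouring gene Hnrnph2, which is transcribed the other way. The Cln3 and Ctsa motifs belonged to a second RefSeq start inside the gene. Only the Cln3 site had G directly before and C directly after the motif, 1 of 10 sites, against 108 of 340 sites (31.8%) in all windows.

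The shorter core CACGTG, which lies inside every TCACGTGA and is also its own reverse complement, was in the windows of 14 of 40 genes (35.0%), against 9.18% of protein-coding genes and 12.6% of marked ones. Lamp1 held 4 of them, beginning 61, 45, 28 and 15 bases before the start, without the longer motif. GAGGAAGT, an ETS-type site of the kind that the macrophage factor PU.1 binds, was searched on both strands. It was in 4 of 40 genes (10.0%), all of them hydrolases (Ctsc, Ctss, Gla and Gusb), against 3.62% of protein-coding genes and 4.40% of marked ones. In 22 of the 48 windows of the members no base lay under a replicated peak. The windows of Atp6v0d1, Atp6v1a, Atp6v0e, Gla and Mcoln1 were among them, although 2755 to 2917 bp of the 3 kb after those starts were covered. The windows that hold the TCACGTGA of Cln3 and Ctsa were covered over all 300 bp, and that of Ctsd over 83 bp. Matches of letters describe the windows and show no binding.

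Of the 49 lysosomal genes, 44 (89.8%) were marked under the replicated list, where 30.3% of all protein-coding genes were. The count was 44 in replicate 1, against 27.2% of all genes, and 44 in replicate 2, against 35.6%. The same 44 genes were marked in both replicates, so no member was marked in 1 replicate only. Of all 21938 protein-coding genes, 5962 were marked in both, 13 in replicate 1 only and 1846 in replicate 2 only. The pooled list also marked 44, against 34.3% of all genes. With any annotated transcript start in place of the outermost one, 47 members were marked, against 32.9% of all genes. By class, 21 of 22 hydrolases, 6 of 7 membrane proteins, 3 of 3 soluble non-enzymes and 14 of 17 V-ATPase genes were marked. At most 3 genes of a class were unmarked, and no test between classes was made, since genes are not replicates.

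The lists reached far into the genes. A median of 53.0% of a member's length lay under the replicated list, 38.0% under that of replicate 1 and 63.4% under that of replicate 2. Over all protein-coding genes the median was 0, and over the 6658 marked ones it was 33.9%. Of the 49 genes, 27 were covered over 50% or more of their length (19 in replicate 1 and 32 in replicate 2) and 9 over 80% or more (3 and 14). Under the replicated list, 2217 of the 21938 protein-coding genes reached 50% and 657 reached 80%. Of the 6658 marked ones, 2140 reached 50% and 655 reached 80%. All together, 614383 of 1336527 bases of the members (46.0%) were covered, against 8.80% of the bases of all protein-coding genes. Longer members had more covered bases (Spearman's rho 0.71 over 49 genes, which share their libraries), as did longer marked genes in general (0.64).

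**Figure D1:**
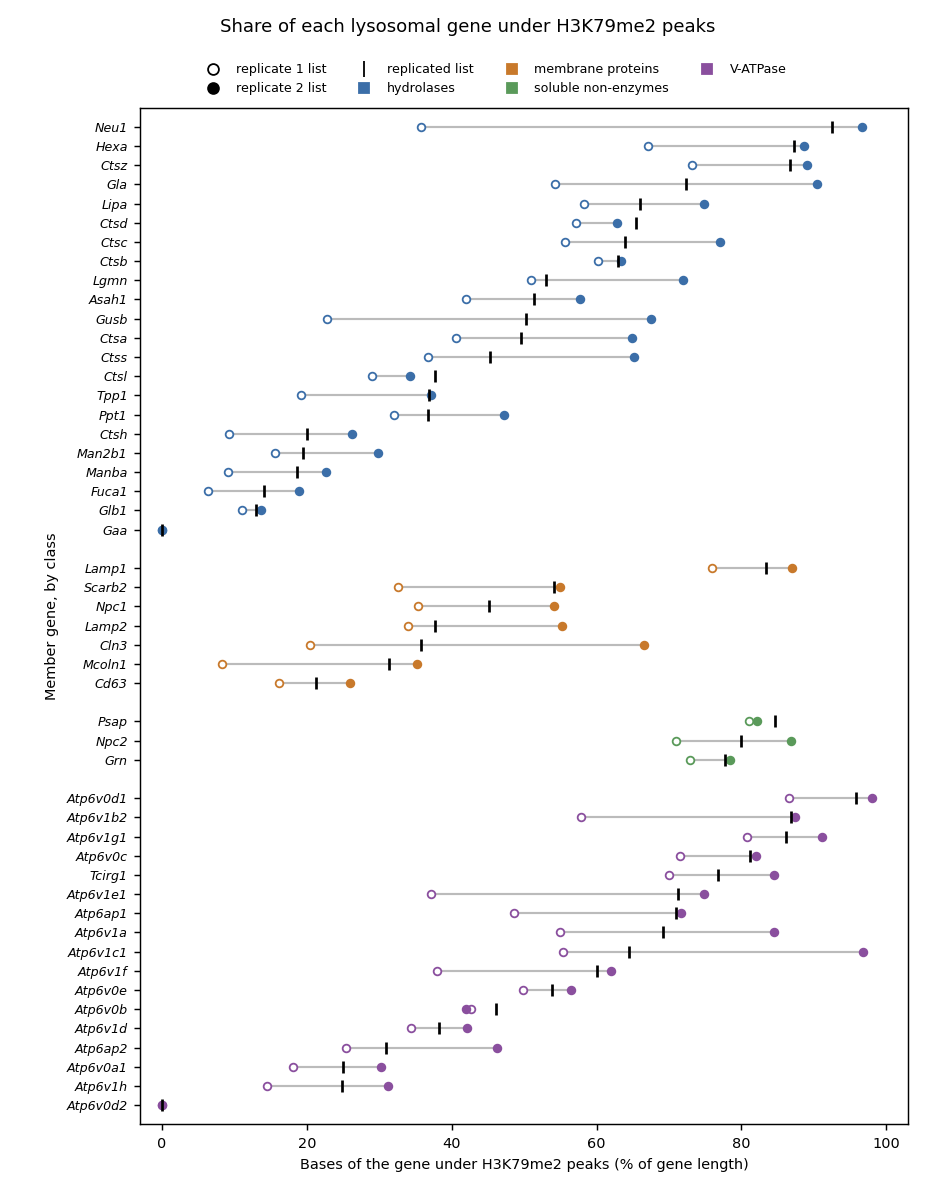
Percent of each of the 49 genes under H3K79me2 peaks (x axis), with genes on the y axis by class and in order of the replicated list. Open circles are the replicate 1 list, filled circles the replicate 2 list and bars the replicated list; Gaa and Atp6v0d2 sit at 0, and Atp6v0d1 reaches 95.8% in the replicated list.

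The hydrolases came first in number. All 10 proteases were marked, with a median of 51.3% of the gene covered. The legumain gene Lgmn, an asparaginyl endopeptidase that trims other proteases (chr12:102394084-102439813), had 23258 covered bp in replicate 1, 32929 in replicate 2 and 24220 in the replicated list, the most of any hydrolase. The highest fold of a peak that touches its first 3 kb, 30.1, was also the highest of the 21 marked hydrolases. Fold is the authors' value of a peak over the control, 1 value for each peak. A peak that touches the first 3 kb can reach far beyond them, so its fold is not a measure of those bases alone.

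Cathepsin genes differed widely in how much of the gene was covered. Ctsz, a carboxypeptidase, had 86.7% of its 11547 bp under the replicated list. Ctsc, the activator of granule serine proteases, had 20974 bp in 1 unbroken block of the replicated list from its first base. Replicate 1 had 5 blocks there and replicate 2 had 4. Ctsh, an aminopeptidase, stood at the low end with 2022 bp in replicate 1, 5751 in replicate 2 and 4381 in the replicated list (20.0% of the gene).

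Between those ends, Ctsb (63.0%), Ctsd (65.5%) and Ctss (45.3%), 3 major endopeptidases of the macrophage lysosome, had 14792, 7939 and 13430 covered bp. Ctsa, the carboxypeptidase that stabilises the sialidase Neu1, was covered over 49.6%, and Ctsl over 37.7%. Tpp1, a tripeptidyl peptidase, had 1423 bp in replicate 1 and 2758 in replicate 2, all within the first 3 kb. Ctsd, Ctsl, Psap and Atp6v0b had more covered bases in the replicated list than in either single list.

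The 9 glycosidases had the lowest median of the hydrolase groups, 19.4% of the gene (15.6% in replicate 1 and 29.8% in replicate 2), with a range from 0 to 92.5%. Hexa, the alpha subunit of beta-hexosaminidase (chr9:59539540-59565109), had 17152 bp in replicate 1, 22671 in replicate 2 and 22324 in the replicated list, 87.3% of the gene. Neu1, the lysosomal sialidase, had 1682 bp in replicate 1 and 4547 in replicate 2, and the replicated list covered 92.5% of this 4701 bp gene. Gla, alpha-galactosidase A, was covered over 72.3% and Gusb, beta-glucuronidase, over 50.3% (22.8% in replicate 1 and 67.5% in replicate 2). The other 4 marked glycosidases, Manba, Man2b1, Fuca1 and Glb1, were covered over 13.0 to 19.4%. Fuca1, alpha-fucosidase, had the lowest fold in the window of all 44 marked members, 5.11.

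Gaa, the acid alpha-glucosidase that degrades glycogen (chr11:119267887-119285454, plus strand), was the 1 unmarked hydrolase. It had 0 covered bp in replicate 1, in replicate 2, in the pooled and in the replicated list. The nearest replicated peak lay 9688 bp beyond its 3′ end, in Eif4a3, and the nearest on the other side 849007 bp away. Its start was CpG-rich (observed to expected CpG of 0.62). Of the 27 members with a CpG-rich start 26 were marked, and of the 22 others 18. No such shares over all protein-coding genes are given here, so these counts describe the members only.

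All 3 lipid and thioester hydrolases were marked. Lipa, lysosomal acid lipase (chr19:34492318-34527474), had 20460 bp in replicate 1, 26328 in replicate 2 and 23189 in the replicated list, and its whole first 3 kb was covered in each of these lists. Asah1, acid ceramidase, was covered over 51.4% of the gene and Ppt1, palmitoyl-protein thioesterase, over 36.7%.

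**Figure D2:**
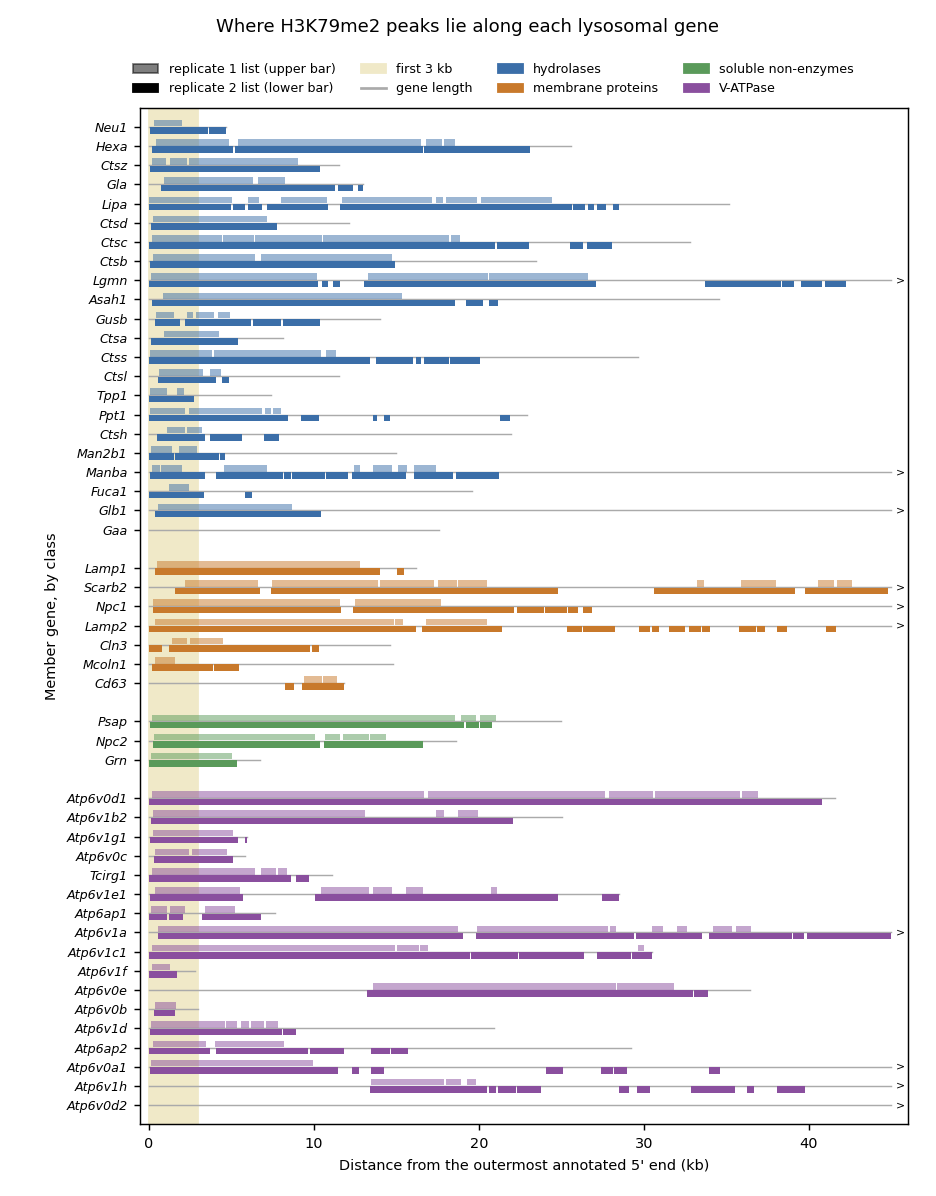
Covered stretches along each of the 49 genes, as distance in kb from the outermost annotated 5′ end (x axis, shown to 45 kb; the sign > marks longer genes), with genes on the y axis by class. In each row the upper, paler bar is the replicate 1 list and the lower bar the replicate 2 list; in Atp6v0e and Atp6v1h the first peak begins more than 13 kb into the gene, and in Cd63 all peaks lie in the 3′ part of the gene.

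Among the 7 membrane proteins the median was 37.7% of the gene (32.6% in replicate 1 and 55.0% in replicate 2). Scarb2, the LIMP-2 receptor that carries beta-glucocerebrosidase to lysosomes (chr5:92441314-92506833), had 21347 bp in replicate 1, 36066 in replicate 2 and 35452 in the replicated list. It had the lowest covered count in the window of any marked member, 1384 bp, and its principal transcript starts 1196 bp inside the gene. From that start, 2580 bp of the 3 kb were covered.

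Npc1, which exports cholesterol from the lysosome (chr18:12189692-12236400), had 16476 bp in replicate 1, 25276 in replicate 2 and 21119 in the replicated list. Lamp2 (chrX:38401357-38456454) had 18724, 30404 and 20758 bp in the same order. The pair of major glycoproteins of the lysosomal membrane differed in extent: Lamp1 was covered over 83.4% of its 16178 bp and Lamp2 over 37.7% of its 55098 bp. Lamp1 had the highest fold of the 44 marked members, 37.6, which ranked 2 among the 6658 marked protein-coding genes.

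Mcoln1, the TRPML1 calcium channel, and Cln3, the protein lost in juvenile Batten disease, had the lowest folds of the marked membrane proteins, 8.71 and 9.46. They also had the largest gaps between replicates of all members: Mcoln1 had 1224 bp in replicate 1 and 5196 in replicate 2, a ratio of 4.25, and Cln3 had 2977 and 9733 bp, a ratio of 3.27. Both were nevertheless marked in both replicates.

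Cd63, a tetraspanin of late endosomes and lysosomes (chr10:128900989-128912822, plus strand), was the 1 unmarked membrane protein. Its first 3 kb had 0 covered bp in every list, yet the gene had 1900 bp in replicate 1, 3062 in replicate 2 and 2523 in the replicated list. The block of the replicated list began 9311 bp after the outermost 5′ end and ran to the 3′ end. RefSeq places a start at base 128909345, and 2045 bp of the 3 kb after it were covered.

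The 3 soluble non-enzymes were the most fully covered class, between 77.7% and 84.6% of the gene. Psap, the precursor of the saposins that present lipids to hydrolases (chr10:60277627-60302597), had 20218 bp in replicate 1, 20535 in replicate 2 and 21126 in the replicated list. Npc2, which hands cholesterol to Npc1 (chr12:84754562-84773152), had 13197, 16153 and 14857 bp. Grn, progranulin (chr11:102430315-102437048), had 4909, 5278 and 5230 bp. The replicates lay close together in this class, with ratios of 1.02 to 1.22, where the median over the 47 covered members was 1.51. With 3 genes, the class gives no more than these values.

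Some peaks lay on the upstream side. In the 3 kb before the outermost 5′ end, 10 of the 49 members (20.4%) had 1000 bp or more covered, the 3 soluble non-enzymes among them, against 7.57% of all protein-coding genes and 16.8% of the marked ones. Psap had 2930 bp and Grn 2463 bp there, with no other annotated gene in that stretch. For Npc2 (1928 bp), Gla (2827 bp), Atp6v1d (2503 bp) and Atp6v1a (1998 bp), a protein-coding gene transcribed the other way (Isca2, Hnrnph2, Eif2s1 and Naa50) begins there. Tcirg1 (1928 bp) and Cln3 (1298 bp) also have a coding neighbour in the stretch, and Ctsd (2452 bp) and Ctsb (1899 bp) have none. A peak has no strand, so bases shared by neighbouring genes cannot be given to either one. In all, 14 members overlap another protein-coding gene, and no such share over all protein-coding genes is given here.

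**Figure D3:**
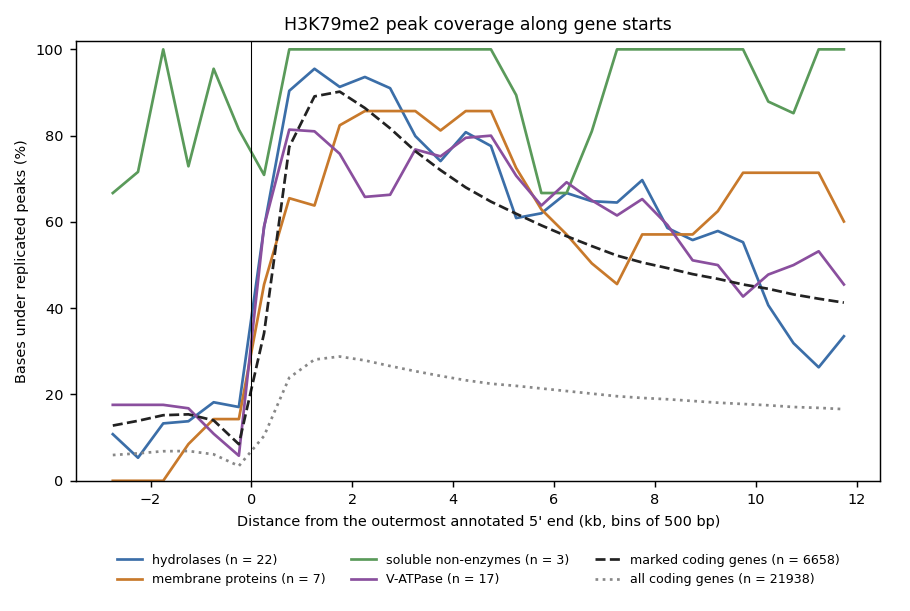
Percent of bases under replicated peaks (y axis) in bins of 500 bp by distance from the outermost annotated 5′ end (x axis, kb), for the 4 classes, all protein-coding genes (dotted) and the marked ones (dashed). Coverage of the hydrolases and V-ATPase genes is low before the start and high within the first kilobases after it; the soluble class has 3 genes.

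The V-ATPase genes had the highest median among the larger classes, 64.5% of the gene (48.6% in replicate 1 and 71.6% in replicate 2), with a range from 0 to 95.8% that spans those of the other classes. The hydrolase median was 49.9% (36.2% in replicate 1 and 63.1% in replicate 2). As a share of all bases of the class the order differed: 48.3% for V-ATPase genes, 45.9% for membrane proteins and 40.7% for hydrolases. Over the 14 marked V-ATPase genes, the median fold of peaks that touch the first 3 kb was 24.1. It was 17.4 over marked hydrolases, 18.9 over marked membrane proteins and 11.9 over all marked protein-coding genes. Of the 44 marked members, 12 were in the top 10% of marked protein-coding genes by fold and 34 in the top 50%.

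In the V0 sector 5 of 7 genes were marked. Atp6v0d1, the d subunit that couples V0 to the central stalk (chr8:105524465-105566047), had 36026 bp in replicate 1, 40745 in replicate 2 and 39837 in the replicated list. In the replicated list that is 95.8% of the gene in 1 unbroken block, the longest of any member. Replicate 2 also had 1 block there, and replicate 1 had 5. Its paralog Atp6v0d2 (chr4:19876841-19922605, minus strand), known from osteoclasts, had 0 covered bp in every list. The nearest replicated peak to it lay 168175 bp away, in Wwp1. The 5′ end of Atp6v0d2 was CpG-poor, with an observed to expected CpG of 0.11, and that of Atp6v0d1 was CpG-rich, at 0.80.

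The a subunit, which forms the proton path with the c ring, has its own set of paralogs. Atp6v0a1 (chr11:101009452-101063719) had 9828 bp in replicate 1, 16363 in replicate 2 and 13551 in the replicated list, 25.0% of the gene. Tcirg1, the a3 subunit (chr19:3896050-3907133), had 7760, 9367 and 8518 bp, 76.8% of the gene. Both had nearly all of the first 3 kb covered, 2932 and 2952 bp, and the genes are 54268 and 11084 bp long.

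Atp6v0c, the proteolipid of the ring, was covered over 81.2%. Atp6v0b, another ring proteolipid with a gene of 3008 bp, had 1280 bp in replicate 1 and 1260 in replicate 2. It was the 1 member with fewer covered bases in replicate 2 than in replicate 1.

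Atp6v0e, the small e subunit (chr17:26663231-26699647, plus strand), was unmarked at its outermost 5′ end. It nevertheless had 18165 bp in replicate 1, 20544 in replicate 2 and 19642 in the replicated list. Its principal transcript starts 13139 bp inside the gene, and 2843 bp of the 3 kb after that start were covered. The TCACGTGA of this gene lies just after that start.

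In the V1 sector 7 of 8 genes were marked, with a median of 66.8% of the gene covered. Atp6v1a, the catalytic A subunit (chr16:44085402-44139705), had 29811 bp in replicate 1, 45885 in replicate 2 and 37571 in the replicated list, 69.2% of the gene. Atp6v1b2, the B subunit of the same ATP-splitting ring, was covered over 86.8% (57.9% in replicate 1 and 87.4% in replicate 2). Atp6v1g1, of the outer stalk, was covered over 86.1% (80.8% and 91.2%). Atp6v1c1 and Atp6v1e1, also of the stalks, were covered over 64.5% (55.4% and 96.8%) and 71.3% (37.1% and 74.9%). Atp6v1f and Atp6v1d, of the central rotor, were covered over 60.0% (38.0% and 62.0%) and 38.2% (34.4% and 42.1%). Atp6v1c1 had the highest fold of the marked V-ATPase genes, 30.2, and Atp6v1f the lowest, 6.03.

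Atp6v1h, the regulatory H subunit (chr1:5070018-5162529, plus strand), was the 1 unmarked V1 gene. It had 13449 bp in replicate 1, 28877 in replicate 2 and 23072 in the replicated list, but none in the first 3 kb. Its principal transcript starts 13062 bp inside the gene, and 2639 bp of the 3 kb after that start were covered. The outermost 5′ end of the gene overlaps that of Rgs20, which is transcribed the other way. Both accessory genes were marked: Atp6ap1 was covered over 71.0% and Atp6ap2, also known as the prorenin receptor, over 30.9%.

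The 5 unmarked members fell into 2 kinds. Gaa and Atp6v0d2 had no covered base in any list, and Cd63, Atp6v0e and Atp6v1h had none in the first 3 kb but 2523 to 23072 bp elsewhere in the gene. No member lay near the threshold of 200 bp: the lowest marked members, Scarb2 and Atp6v0b, had 1384 and 1388 bp, and every unmarked one had 0.

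**Figure D4:**
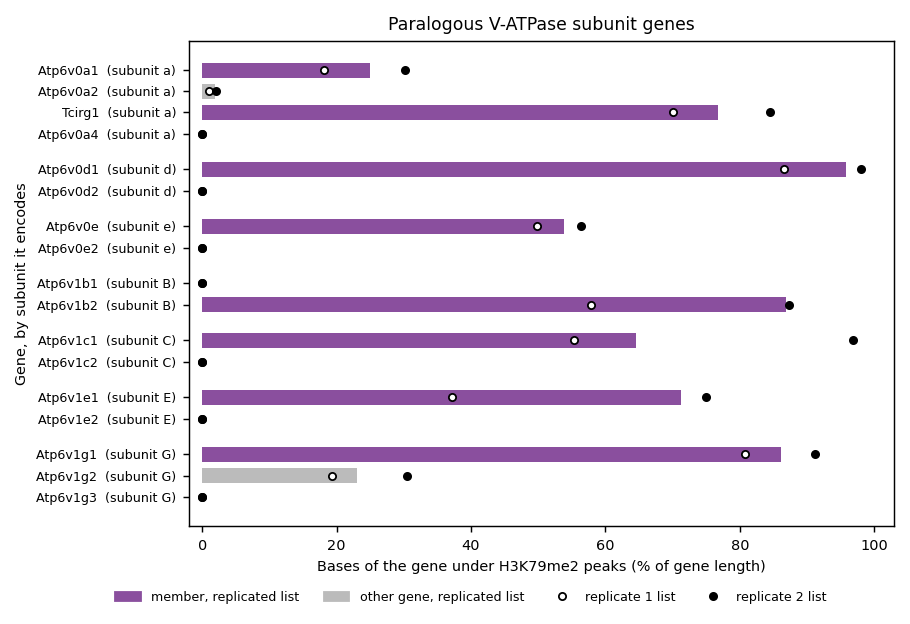
Percent of the gene under H3K79me2 peaks (x axis) for V-ATPase genes that have paralogs (y axis, by the subunit they encode). Bars are the replicated list (members dark, other genes grey), open circles the replicate 1 list and filled circles the replicate 2 list; in each pair or set with a grey gene, the grey gene is at 0 or below the members.

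The other V-ATPase genes, which are paralogs known mostly from single tissues, were mostly not covered. Most protein-coding genes were not covered either, and their median was 0 bp. Of the 9 such genes 2 were marked (22.2%), where 30.3% of all protein-coding genes were, so these counts describe the 9 genes only. The 2 were Atp6v0a2 with 1880 covered bp (977 in replicate 1 and 1938 in replicate 2) and Atp6v1g2 with 1177 bp (987 and 1554). All 1177 bp of Atp6v1g2 lie in its overlap with Nfkbil1, which was itself marked. The first 3 unmarked genes in list order, Atp6v0a4 and Atp6v1b1 of kidney proton-secreting cells and Atp6v0e2, had 0 covered bp in both replicates. So did Atp6v1c2, Atp6v1e2, Atp6v1g3 and Atp6ap1l. For the B, C, E and e subunits 1 paralog was thus covered over 53.9% or more and the other not at all.

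Along the genes, coverage was 16.7% of bases in the last 500 bp before the 5′ end, 57.6% in the first 500 bp after it and 86.2% between 1000 and 1500 bp. It was 67.7% between 5000 and 5500 bp and 50.6% between 10000 and 10500 bp. Marked protein-coding genes in general had 34.2% in the first 500 bp, their highest value of 90.2% between 1500 and 2000 bp and 44.5% between 10000 and 10500 bp. The marked genes were chosen by their first 3 kb and the members were not, so the levels within 3 kb are not comparable.

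Introns of the members had 50.3% of their bases covered and exons 24.2%. These shares take no account of where exons and introns lie along the gene, and no such shares of other genes are given here. The last 1 kb before the 3′ end had covered bases in 6 members under the replicated list, Neu1, Cd63, Atp6v0c, Atp6v1c1, Atp6v1g1 and Atp6ap1. The number was 3 in replicate 1 (Cd63, Atp6v1c1 and Atp6v1g1). It was 10 in replicate 2, namely the 6 of the replicated list and Gla, Lamp1, Atp6v0d1 and Atp6v1e1. The last 1 kb was counted for the members only, so these numbers cannot be called high or low.

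The replicates differed in extent and not in which members they marked. Replicate 1 covered 482815 bp of the members and replicate 2 712600 bp, a ratio of 1.48, and 99.8% of the bases of replicate 1 were also in replicate 2. In the other direction, 67.6% of the bases of replicate 2 were in replicate 1. Over all protein-coding genes the ratio was 1.79, and the shares were 99.3% and 55.5%. Of the 47 members with any covered base, 46 had more in replicate 2, and 9 had at least 2 times as many. The replicate 2 list also held more peaks in all, 31577 against 22979, and the part of sequencing depth, which is unknown, was not tested.

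Other lysosomal genes were counted from lists of the same pathway. Of 32 other hydrolases 17 were marked (53.1%), 13 in replicate 1 and 21 in replicate 2. Among those with the most covered bases was Galc, which degrades galactosylceramide, with 7513 bp (911 in replicate 1 and 18313 in replicate 2). Another was Scpep1, a carboxypeptidase, with 7430 bp (6291 and 11861). Ids, Sgsh and Hgsnat, which act in the breakdown of heparan sulphate, were unmarked, with 0 bp in replicate 1. Replicate 2 covered 3273 bp of Sgsh and 2984 bp of Hgsnat. Hgsnat, counted in this list, is an acetyltransferase and not itself a hydrolase. In the list of other soluble or activator genes 3 of 3 were marked, among them Gm2a, the GM2 activator (4870 bp), and Sumf1, which activates sulphatases (23697 bp).

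Of 24 other membrane proteins 15 were marked (62.5%), 13 in replicate 1 and 19 in replicate 2. Slc29a3, a nucleoside transporter, led the list with 23293 bp (5384 in replicate 1 and 29599 in replicate 2). Gpnmb, a glycoprotein of phagocytes, had 20316 bp (14983 and 20342), and Lmbrd1, which exports cobalamin, 18482 bp (6329 and 27484). Lamp3 and Laptm4b had 0 bp in every list. Ostm1, a partner of the Clcn7 exchanger, had 13106 bp (1294 in replicate 1 and 13351 in replicate 2) but none in the first 3 kb.

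**Figure D5:**
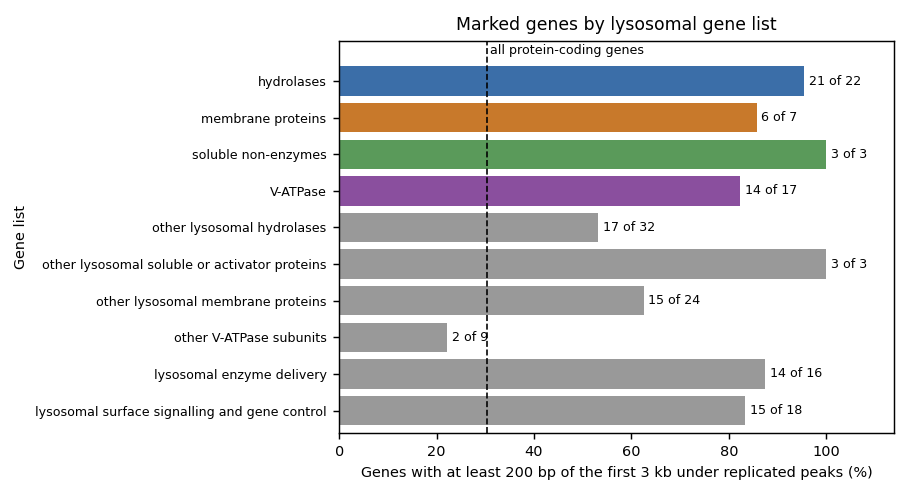
Percent of genes marked under the replicated list (x axis) in the 4 member classes (coloured) and 6 other lysosomal gene lists (grey), with the count beside each bar. The dashed line is the share of all protein-coding genes, 30.3%; only the other V-ATPase subunits lie to its left.

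Genes that deliver enzymes to lysosomes were marked in 14 of 16 cases (87.5%). Gnptab, which makes the mannose 6-phosphate tag, had 35305 bp, Igf2r, a receptor for that tag, 23536 bp and Vps41, a tethering protein, 13201 bp. Gnptg, with 0 covered bp in every list, and Sort1 were unmarked. Replicate 2 nevertheless covered 511 bp of the first 3 kb of Sort1 and 10775 bp of the gene. Genes of signalling on the lysosomal surface and of lysosomal gene control were marked in 15 of 18 cases (83.3%). Fnip2 led with 98529 bp (88364 in replicate 1 and 102213 in replicate 2). Rptor had 96589 bp (25022 and 113063) and Mitf 80897 bp (33105 and 138065). Mitf belongs to the family that binds the CLEAR element, as do Tfeb (38398 bp), Tfe3 (4121 bp) and Tfec (27760 bp), which were marked as well. Of 9 genes of the platform that recruits mTORC1, 6 were marked (Lamtor1, Lamtor2, Lamtor3, Lamtor5, Rraga and Rragc), and Lamtor4, Rragb and Rragd were not, although replicate 2 covered 8935 bp of Rragd.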

How the data were processed

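The deposited files are peak lists on mm10 (GRCm38): 1 for each replicate, 1 from the pooled reads and 1 replicated list. Alignment, peak calling and the derivation of the replicated list are steps not given in the sources used here. The authors computed for each peak a fold over the control, a ratio used here only to describe and rank peaks within a list. The deposited −log10 q of each peak was used only to count peaks with q over 0.05, and 0 of the 87 replicated peaks on members had one. Tracks and alignments were not used here.

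Overlapping peaks of a list were joined with Python 3.11.15 and numpy 2.4.6, and covered bases were counted per gene of GENCODE M21, in the first 3 kb (minimum 200 bp) and in the whole gene. The interval code was tested on simulated data on 719 genes. CpG-rich starts have, over 500 bp to either side, a GC content of 50% or more and a ratio of observed to expected CpG of 0.6 or more. The principal transcript is the one with the annotation's APPRIS principal tag. Motifs were searched on both strands of the RefSeq windows. Alternatives were each replicate alone, the pooled list, leaving out peaks under the list's median fold, a minimum of 1 or 1000 bp, a window of 1 kb and any annotated start.

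The members and lists (other hydrolases, soluble or activator proteins, membrane proteins, V-ATPase subunits, enzyme delivery, surface signalling and gene control, and the 2 marker checks) were chosen with earlier results of these data known. By the rule for named genes, every member is accounted for. Full values are given for the 3 members of each class with the most covered bp, for each unmarked member and for the pairs Atp6v0d1 and Atp6v0d2, and Atp6v0a1 and Tcirg1. In the other lists, up to 3 marked genes with the most covered bp and up to 3 unmarked ones in list order are named, and all marked ones where 5 or fewer are, except for items that are not reported here. The other genes of those lists that are named were chosen after their values were seen.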

Additional observations from a re-analysis of the deposited data

How the results depend on the processing

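The count of 44 marked members was 44 with the list of either replicate alone, with the pooled list and at a minimum of 1 or 1000 bp. It was 43 in the first 1 kb, 41 when peaks under the median fold were left out and 47 with any annotated start. No shares over all protein-coding genes are given for the minima of 1 or 1000 bp, the 1 kb window or the median fold. Counts under those settings, of members and of other lists, therefore describe the named genes only. The class counts stayed within 2 genes of the main ones under each of these settings. Among the other lists, leaving out peaks under the median fold left 10 of 32 other hydrolases marked in place of 17, and 1 of 9 other V-ATPase subunits in place of 2. How much of a gene was covered depended on the replicate. Leaving out each replicate in turn, the median covered length of the first 3 kb ran from 2436 to 2838 bp over all members, from 2358 to 2897 bp for hydrolases, from 1446 to 2615 bp for membrane proteins and from 2614 to 2838 bp for V-ATPase genes. The median percent of the gene covered ran from 32.6 to 55.0 for membrane proteins and from 72.9 to 82.2 for soluble non-enzymes, and coverage between 1500 and 2000 bp from 78.4% to 85.9%. The lower values came from replicate 1 alone, and the cause was not tested. The medians over all members and over the V-ATPase genes moved by less than the spread between the replicates under the pooled list and the median fold. Between the replicates, 99.8% of the bases of replicate 1 on members were in replicate 2, and 99.9% at or above the median fold. No result reversed. No paired analysis was possible because the study has 1 group. Peak lists without counts limit what can be said: a base outside a peak may have fallen short of the caller's threshold, and the depth of the libraries is unknown.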
